A study of Rattus norvegicus with 16 samples.

Results

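Potassium channel genes were described here as the genes whose symbol starts with Kcn, which name the pore-forming subunits of potassium channels and several of their auxiliary proteins. Rows naming a single symbol were used, and of rows with the same symbol the most abundant stood for the gene. This gave 89 genes of 16405 symbols in the table of the hippocampal CA1 field and 91 of 16395 in the table of white blood cells (WBC). Of these, 89 genes were in both tables and 2 in the WBC table alone. The rats were male Sprague Dawley animals of 200 to 240 g at the start of housing, and all animals went through surgery and a learning test 1 week later, before tissue was taken. The groups were CA1 after fluid percussion injury (traumatic brain injury, TBI), CA1 after sham surgery, WBC after TBI and WBC after sham surgery, with 4 libraries each and 16 in all. The labels give no transgene, age or pooling of animals, and since they do not say that each library is a separate rat, the p-values reflect only how these libraries vary. Whether a lower level means fewer cells of a type or less RNA per cell cannot be told apart in such bulk tissue.

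Potassium channels let potassium leave the cell and so set the resting potential, end the action potential and limit repetitive firing. The Kcna to Kcnd, Kcnh and Kcnq families are voltage-gated, Kcnn and Kcnm channels are opened by calcium, Kcnj channels are inward rectifiers, and Kcnk channels carry leak current through a tandem pore. CA1 pyramidal neurons use Kcnd channels in their dendrites and Kcnq channels for the M-current, astrocytes clear potassium through Kcnj10, and lymphocytes depend on Kcna3 and Kcnn4 to sustain calcium entry.

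Levels are given in FPKM, which divides the fragments of a transcript by its length and by the library size. The depth of the libraries is unknown, because the tables hold no counts and the low values gave no common step from which counts could be recovered. Correlations between libraries were taken on the log2 scale over the rows tested (a mean of at least 1 FPKM and the authors' status OK). Pearson's r ran from 0.967 to 0.981 for CA1 and from 0.910 to 0.968 for WBC. Camk2a, a kinase of excitatory neurons, was at 1356 to 1549 FPKM in the CA1 TBI libraries and at 1239 to 1935 in the CA1 sham libraries, while Fibcd1 and Spink8, also on the list of CA1 pyramidal markers, were at 0 and at 0.0591 to 0.320 FPKM. In the WBC libraries the summed level of 12 T cell markers was 910 to 1345 FPKM after TBI and 910 to 1239 after sham, and that of 14 red cell markers was 4884 to 11904 FPKM after TBI and 12160 to 19111 after sham. Red cell transcripts were thus abundant in the samples labelled white blood cells.

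CA1 held most of the potassium channel repertoire and WBC held little of it. The average over all 8 libraries reached 1 FPKM for 70 genes in CA1 and for 11 in WBC, with 9 of them in both, and 10 FPKM for 32 genes in CA1 and 4 in WBC. In WBC 61 of the genes in both tables had a mean under 0.1 FPKM, and 14 were listed at 0 in every library. In CA1, Kcna10, Kcne1 and Kcnk6 were listed at 0 throughout. The tables were normalized separately, so levels in the tissues are set side by side and were not tested. The CA1 order was led by auxiliary subunits: Kcnab2, a beta subunit of Kcna channels, averaged 284 ± 31.4 FPKM after TBI and 351 ± 65.9 after sham (SD, n = 4 each). Kcnmb4, the neuronal beta subunit of the Kcnma1 channel (62.4 ± 2.68 after TBI, 59.5 ± 1.80 after sham), and Kcnab1 (57.0 ± 6.94 after TBI, 63.8 ± 3.36 after sham) were also among the highest and did not differ from each other beyond their spread. In WBC the order was Kcnab1 (60.6 ± 18.6 FPKM after TBI, 109 ± 28.3 after sham), Kcnn4 (68.5 ± 3.54 after TBI, 75.8 ± 4.20 after sham), Kcnab2 (33.1 ± 1.99 after TBI, 32.6 ± 4.78 after sham) and Kcna3 (14.1 ± 2.41 after TBI, 18.2 ± 4.28 after sham). Kcnab1 and Kcnn4 overlapped in the TBI libraries, while in the sham libraries every Kcnab1 value lay above every Kcnn4 value.

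**Figure D1:**
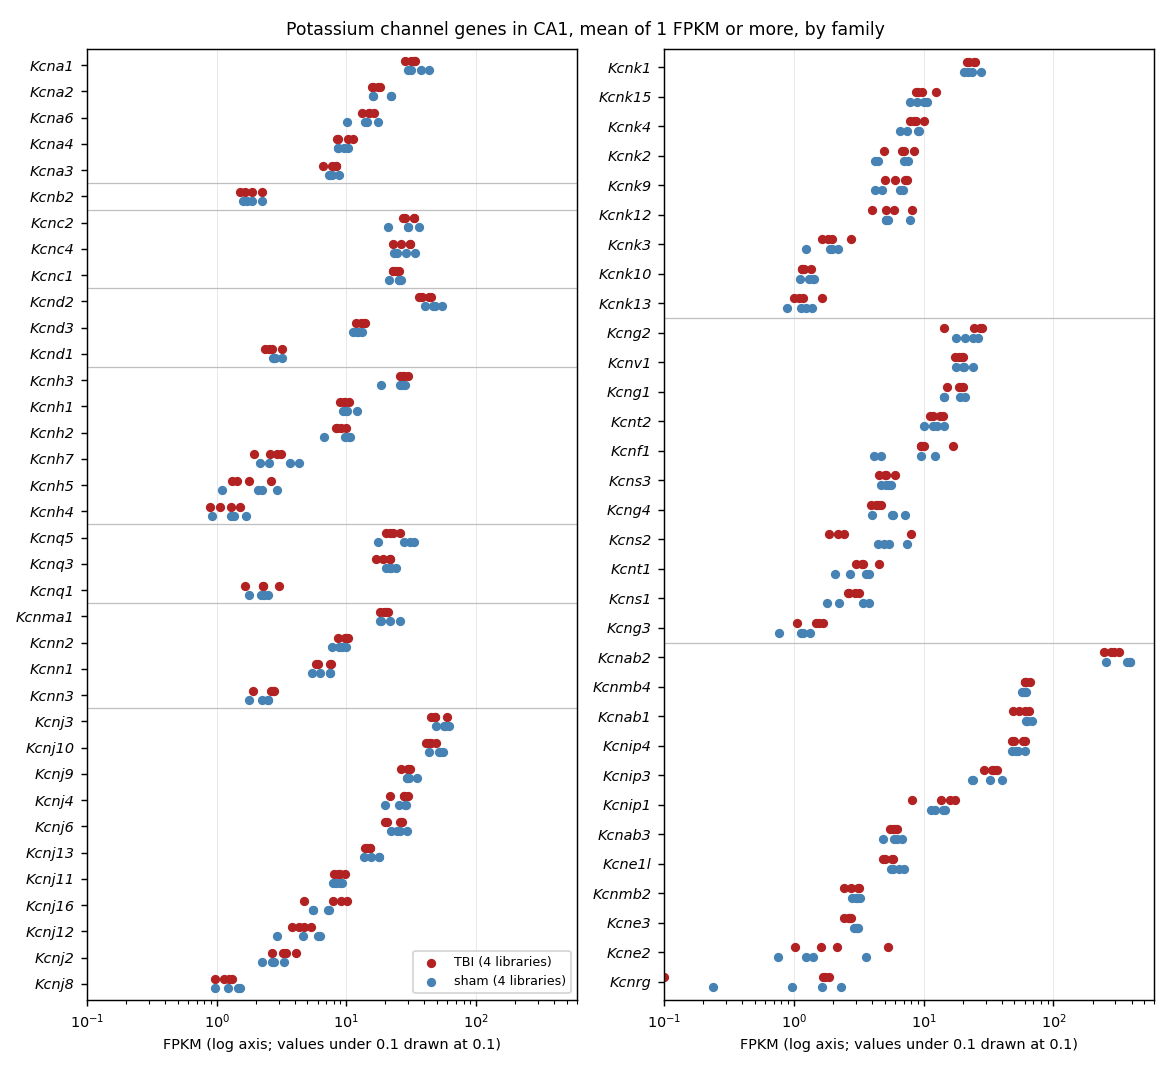
FPKM in CA1 of 68 potassium channel genes with a mean of at least 1 FPKM, on a log axis, 1 point per library, with TBI libraries in red above sham libraries in blue and families set apart by lines; values under 0.1 are drawn at 0.1, which concerns Kcnrg in TBI 1 (listed at 0). The levels spread from about 1 FPKM to over 300 for Kcnab2, and apart from Kcne3 the TBI and sham points of each gene overlap.

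The genes at 1 FPKM or more in WBC alone were Kcnn4, the intermediate-conductance calcium-activated channel of lymphocytes and red cells (CA1 mean 0.187 FPKM), and Kcnj5, a G-protein-gated inward rectifier (CA1 mean 0.509, WBC mean 1.94). Those at that level in both tissues were Kcna3, Kcnab1, Kcnab2, Kcne1l, Kcnj9, Kcnj13, Kcnk1, Kcnmb4 and Kcns3. In RefSeq, 10 pairs of potassium channel genes lie next to each other, and several pairs had unlike levels in these tables. Kcna3 averaged 7.77 FPKM in CA1 and 16.2 in WBC, while its neighbour Kcna2 averaged 18.0 in CA1 and 0.051 in WBC, and Kcna10 beyond it was listed at 0 in both. Kcnj9, a G-protein-gated rectifier, averaged 30.2 FPKM in CA1 and 1.40 in WBC, and its neighbour, the astrocyte gene Kcnj10, averaged 47.7 and 0.150. Kcnj9 overlaps part of Igsf8 in RefSeq, and 13 of the 91 genes overlap another protein-coding gene, among them Kcnab2, Kcnd2, Kcnh3 and Kcnj13. Without strand in the counting, which no source states, reads of overlapping genes cannot be told apart.

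RefSeq promoters, taken as 250 bases before and 50 after the start of a gene in the assembly GRCr8 (not the rn5 build of the tables), were at hand for 62 of the 91 genes. They held a median of 13.5 CG dinucleotides per 300 bases, against 7 over all 27457 promoters of that length. The 37 genes at 1 FPKM or more in CA1 alone had a median of 20, the 8 genes at that level in both tissues 13.5, and the 16 genes at that level in neither 6.5. On either strand TATAAA was in 2 of the 62 (3.23%), against 14.3% of all promoters, and the cyclic AMP response motif TGACGTCA was in none, against 1.91%. The promoters of 4 genes present in both tissues are printed because the values of these genes are followed below. They are given with CG dinucleotides in capitals, 5′ to 3′ on the strand of the gene. The Kcnab1 window (chr2:151614301-151614600, plus strand) has 9 CG dinucleotides, that of Kcnab2 (chr5:168270711-168271010, minus strand) has 28, that of Kcna3 (chr2:197320074-197320373, plus strand) has 36 and that of Kcns3 (chr6:39584056-39584355, minus strand) has 12.
Kcnab1: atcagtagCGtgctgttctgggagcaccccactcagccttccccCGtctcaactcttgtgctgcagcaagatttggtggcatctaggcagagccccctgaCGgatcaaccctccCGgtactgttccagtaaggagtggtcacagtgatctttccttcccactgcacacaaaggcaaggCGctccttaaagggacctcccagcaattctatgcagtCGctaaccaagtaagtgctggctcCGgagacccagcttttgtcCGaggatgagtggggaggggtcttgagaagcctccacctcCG
Kcnab2: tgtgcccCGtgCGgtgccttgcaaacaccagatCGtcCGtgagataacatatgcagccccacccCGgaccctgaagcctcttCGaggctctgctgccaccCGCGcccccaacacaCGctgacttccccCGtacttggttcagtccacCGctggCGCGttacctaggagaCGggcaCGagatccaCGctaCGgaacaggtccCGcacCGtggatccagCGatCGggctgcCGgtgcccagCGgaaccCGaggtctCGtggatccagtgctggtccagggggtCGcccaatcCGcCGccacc
Kcna3: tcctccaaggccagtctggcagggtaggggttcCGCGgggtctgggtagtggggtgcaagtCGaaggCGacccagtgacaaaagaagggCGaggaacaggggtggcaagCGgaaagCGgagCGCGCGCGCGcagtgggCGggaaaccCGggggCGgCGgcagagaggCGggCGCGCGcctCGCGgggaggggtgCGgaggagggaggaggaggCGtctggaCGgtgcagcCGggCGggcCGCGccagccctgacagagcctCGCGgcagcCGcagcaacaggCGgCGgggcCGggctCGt
Kcns3: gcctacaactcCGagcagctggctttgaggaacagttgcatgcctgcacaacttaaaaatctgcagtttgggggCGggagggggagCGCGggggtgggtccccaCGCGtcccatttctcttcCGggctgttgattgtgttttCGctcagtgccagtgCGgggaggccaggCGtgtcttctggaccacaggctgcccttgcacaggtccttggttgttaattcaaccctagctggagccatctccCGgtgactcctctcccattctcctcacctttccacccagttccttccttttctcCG

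CA1, TBI against sham, asked whether channel transcripts of the hippocampus differ 1 week after injury. No potassium channel gene passed. Of the 69 genes tested, 33 were higher and 36 lower in TBI, and limma's smallest adjusted p among them was 0.891, where 0.00683% of all 14637 rows passed (1 row). At an unadjusted limma p under 0.05 there was 1 gene (1.45%), lower in TBI, against 5.14% of all rows in either direction and 2.6% lower. In that gene alone the groups did not overlap, against 2.88% of all rows in either direction and 1.6% lower. The median log2 difference was -0.005, beside -0.009 over all rows. Of the other 20 genes, 19 had a mean under 1 FPKM, and Kcna2 was left out because the authors' status was not OK in TBI 1. Kcna2, an axonal Shaker-type subunit, was at 16.2, 18.1, 17.4 and 15.9 FPKM in the TBI libraries and at 15.9, 22.0, 22.0 and 16.1 in the sham libraries.

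The gene below 0.05 was Kcne3, a single-pass subunit that modifies voltage-gated channels, at a low level. Kcne3 was at 2.74, 2.43, 2.66 and 2.63 FPKM in the TBI libraries, against 3.05, 3.12, 2.88 and 3.03 in the sham libraries. All TBI values lay under all sham values, by a narrow margin between TBI 1 and sham 3. The log2 difference was -0.18 ± 0.07 (SE), with a limma adjusted p of 0.891. On leaving out a library in turn, Kcne3 stayed under an unadjusted limma p of 0.05 without TBI 1 or sham 3 and was over it in the other 6 fits and with the replicate block.

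The Shaker-type, Shab-type and Shaw-type families held no gene with an unadjusted limma p under 0.05. Of the 4 Kcna genes tested 2 were higher and 2 lower, with a median log2 difference of 0.02. Kcna1, which acts at axons, averaged 31.8 ± 2.42 FPKM after TBI and 35.6 ± 6.07 after sham (log2 -0.15 ± 0.12). Kcna6 averaged 14.9 ± 1.30 after TBI and 14.0 ± 3.04 after sham. Kcnb2, a delayed rectifier, was at 1.82 ± 0.305 after TBI and 1.85 ± 0.276 after sham. The Kcnc genes, whose fast repolarization serves fast-spiking interneurons, were 2 higher and 2 lower, with Kcnc1 at 23.9 ± 1.25 FPKM after TBI and 24.7 ± 2.38 after sham, and Kcnc2 at 30.5 ± 3.05 after TBI and 29.1 ± 6.44 after sham. Of 10 interneuron markers tested 6 were higher and 4 lower, and 2 (20%) had an unadjusted limma p under 0.05, against 5.14% of all rows. These were Gad1 and Gad2, which make GABA and are not confined to fast-spiking cells. Both were lower (log2 -0.18 ± 0.07 and -0.34 ± 0.14, limma adjusted p = 0.891 for each). Pvalb, a marker of fast-spiking cells, was level, at 111 ± 12.4 FPKM after TBI and 108 ± 10.5 after sham (log2 0.04 ± 0.10).

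In the A-type, ether-a-go-go and M-current families more genes were lower than higher, and none had an unadjusted limma p under 0.05; of all CA1 rows tested 53.3% were lower. Among Kcnd genes 1 was higher and 2 lower. Kcnd2, the dendritic A-type channel of pyramidal neurons, was at 43.3, 38.1, 45.0 and 36.5 FPKM in the TBI libraries, against 40.1, 54.5, 48.0 and 46.7 in the sham libraries. Its log2 difference was -0.21 ± 0.10 (limma adjusted p = 0.891). The groups overlapped only through sham 1, the lowest sham library. Kcnd3 averaged 13.02 ± 0.917 after TBI and 12.2 ± 0.874 after sham. Of 6 Kcnh genes 1 was higher and 5 lower, with a median of -0.10. The exception was Kcnh3, a forebrain subunit, at 27.7 ± 1.58 FPKM after TBI and 25.0 ± 4.47 after sham. Kcnh2, which carries the rapid delayed rectifier of the heart, averaged 8.96 ± 0.703 after TBI and 9.38 ± 1.83 after sham. Of 4 Kcnq genes 1 was higher and 3 lower, with a median of -0.18, the lowest of the families with more than a single tested gene. Kcnq5, an M-current subunit, was at 21.7, 20.2, 23.0 and 25.9 FPKM in the TBI libraries, against 17.5, 33.05, 31.1 and 28.03 in the sham libraries (log2 -0.23 ± 0.19). Here sham 1 lay under all TBI libraries and the other 3 sham libraries lay above them. Kcnq3, also of the M-current, averaged 19.8 ± 2.25 after TBI and 22.0 ± 1.62 after sham.

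**Figure D2:**
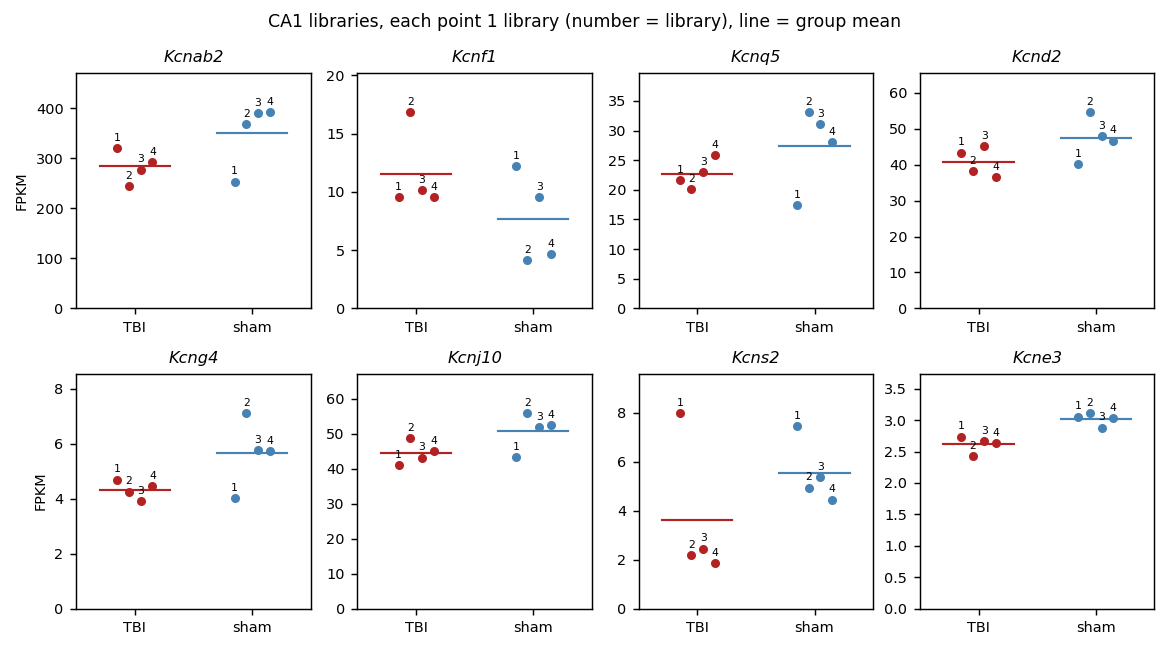
FPKM in CA1 of 8 potassium channel genes, 1 numbered point per library, TBI left and sham right, with a line at the group mean. In Kcnab2, Kcnq5, Kcnd2, Kcng4 and Kcnj10 sham 1 is the lowest sham library and the other sham libraries lie above the TBI libraries; in Kcnf1 TBI 2 (16.8 FPKM) is the highest library; in Kcns2 TBI 1 (7.996 FPKM) stands apart from the other TBI libraries (1.86 to 2.45); in Kcne3 the groups do not overlap.

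Of 11 inward rectifiers of the Kcnj family 4 were higher and 7 lower, with a median of -0.07. Kcnj10, through which astrocytes take up potassium, was at 41.1, 48.8, 43.2 and 45.1 FPKM in the TBI libraries, against 43.2, 56.0, 52.0 and 52.4 in the sham libraries. The log2 difference was -0.19 ± 0.09 (limma adjusted p = 0.891), and again sham 1 was the sham library among the TBI values. Kcnj16, which forms channels with Kcnj10 in astrocytes, differed the other way, at 4.71, 9.17, 7.83 and 10.2 after TBI and at 5.49, 7.28, 5.57 and 7.31 after sham (log2 0.26 ± 0.22). Its lowest library, TBI 1, lay under every sham library, so leaving that library out by itself raises the difference. The difference was then 0.47 ± 0.14 with no overlap (limma adjusted p = 0.614). Of the 12 astrocyte markers 5 were higher and 7 lower, with a summed level of 2811 to 3429 FPKM after TBI and 2878 to 3881 after sham. Their part in these values was not tested.

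The G-protein-gated subunits, which answer inhibitory transmitters, were all lower by small amounts: Kcnj3 averaged 50.1 ± 6.33 FPKM after TBI and 56.4 ± 5.09 after sham, Kcnj6 23.2 ± 3.58 and 25.6 ± 3.04, and Kcnj9 29.4 ± 1.96 and 30.9 ± 2.79. None of them differed beyond the spread (limma adjusted p = 0.891, 0.891 and 0.903). Kcnj2, a strong rectifier, was at 4.07, 3.42, 3.22 and 2.69 FPKM in the TBI libraries and at 3.30, 2.78, 2.24 and 2.68 in the sham libraries. This was a log2 difference of 0.24 ± 0.14 (limma adjusted p = 0.891), and the groups overlapped. The ATP-sensitive subunits were level, Kcnj11 at 8.81 ± 0.728 after TBI and 8.58 ± 0.595 after sham, and the pericyte gene Kcnj8 at 1.16 ± 0.148 and 1.29 ± 0.250. Markers of endothelium and pericytes were lower in 8 of 10, where 53.3% of all rows were lower. The 2 that were not lower were the pericyte markers Vtn and Cspg4 (log2 0.008 and 0.004), while the pericyte markers Pdgfrb and Rgs5 were lower (-0.14 and -0.07). Of the 10, 3 (30%) had an unadjusted limma p under 0.05 and no overlap, all lower. Of all rows 2.6% were lower at that p, and 1.6% were lower without overlap. The part of these cells in the Kcnj8 values was not tested.

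Of 9 leak channels of the Kcnk family 7 were higher and 2 lower, with a median of 0.08, and none had an unadjusted limma p under 0.05. Kcnk2, gated by stretch and lipids, averaged 6.82 ± 1.43 FPKM after TBI and 5.83 ± 1.76 after sham, and its relative Kcnk4 8.77 ± 0.967 and 8.04 ± 1.26. The acid-sensitive Kcnk9 was at 6.41 ± 1.12 after TBI and 5.63 ± 1.34 after sham. Kcnk1, the most abundant, was at 23.3 ± 1.58 and 23.4 ± 3.26, and Kcnk15 at 9.92 ± 1.66 and 9.34 ± 1.21. Kcnk13, found in microglia, was at 1.22 ± 0.284 after TBI and 1.16 ± 0.206 after sham, and 7 of 12 microglial markers were higher. Among the calcium-activated channels, Kcnma1, the large-conductance pore, averaged 19.7 ± 1.15 after TBI and 21.1 ± 3.66 after sham. The small-conductance genes Kcnn1 (6.74 ± 0.940 after TBI, 6.66 ± 0.959 after sham), Kcnn2 (9.66 ± 0.679 and 8.94 ± 0.929) and Kcnn3 (2.50 ± 0.408 and 2.25 ± 0.328) were each slightly higher.

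The electrically silent subunits, which form no channel alone and modify Kcnb channels, held the extremes of the differences. Kcnf1 was at 9.52, 16.8, 10.1 and 9.54 FPKM in the TBI libraries, against 12.2, 4.16, 9.57 and 4.69 in the sham libraries. TBI 2 was the highest and sham 2 and sham 4 the lowest, and the groups overlapped. Its log2 difference, the most positive of the 69, was 0.64 ± 0.34 (limma adjusted p = 0.891). Kcng3 was at 1.67, 1.55, 1.48 and 1.05 after TBI and at 1.14, 0.769, 1.17 and 1.33 after sham (log2 0.27 ± 0.16, limma adjusted p = 0.891). In it 3 TBI libraries lay above all sham libraries. Kcng4 was at 4.69, 4.26, 3.91 and 4.46 after TBI and at 4.01, 7.13, 5.77 and 5.74 after sham (log2 -0.33 ± 0.15, limma adjusted p = 0.891), with overlap only through sham 1. Kcng2 (23.5 ± 6.29 after TBI, 22.2 ± 3.80 after sham), Kcng1 (18.4 ± 2.26 and 17.1 ± 3.43) and Kcnv1 (19.0 ± 1.11 and 20.6 ± 2.59) were the most abundant and did not differ beyond the spread.

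Kcns2 had the most negative difference, and the CA1 table holds this silent subunit in several rows. The row that stands for it was at 7.996, 2.20, 2.45 and 1.86 FPKM in the TBI libraries, against 7.45, 4.94, 5.36 and 4.46 in the sham libraries. TBI 1 and sham 1 were the highest of their groups. The log2 difference was -0.75 ± 0.38 (limma adjusted p = 0.891). A second Kcns2 row was listed at 0 in TBI 1 and sham 1 and at 3.94, 4.29 and 3.57 in the other TBI libraries, against 4.69, 4.67 and 5.16 in the other sham libraries. The sums of both rows were 7.996, 6.14, 6.74 and 5.43 FPKM after TBI, against 7.45, 9.63, 10.03 and 9.62 after sham, so every TBI library except TBI 1 lay under every sham library. The log2 difference of the sums was -0.46 ± 0.14 over all 8 libraries (2-sided exact permutation p = 0.057). Without TBI 1 and sham 1 it was -0.64 ± 0.09 (2-sided exact permutation p = 0.1, the smallest that split can give). Leaving out TBI 1 by itself sets the groups of sums apart, so that value adds no evidence. Both differences were smaller than that of the first row alone. Kcnrg, a regulator rather than a channel, also had TBI 1 and sham 1 apart, at 0 and 0.239 FPKM, against 1.68 to 1.88 in the other TBI libraries and 0.973 to 2.31 in the other sham libraries.

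Among 12 auxiliary genes 5 were higher and 7 lower, with a median of -0.02. Kcnab2 was at 321, 245, 277 and 292 FPKM in the TBI libraries, against 253, 368, 390 and 391.5 in the sham libraries. Here too 3 sham libraries lay above all TBI libraries and sham 1 lay among them, and the log2 difference was -0.29 ± 0.15 (limma adjusted p = 0.891). Kcnab1 was at 64.4, 48.8, 60.8 and 54.0 after TBI, against 62.5, 61.2, 62.9 and 68.8 after sham (log2 -0.17 ± 0.09). Kcnmb4 was at 60.9, 66.4, 60.9 and 61.6 after TBI and at 58.5, 61.7, 57.6 and 60.2 after sham (log2 0.07 ± 0.05, limma adjusted p = 0.891). Kcne1l, listed as Kcne5 in RefSeq, was at 5.80, 5.66, 4.84 and 5.05 after TBI and at 7.04, 5.55, 5.81 and 6.49 after sham (log2 -0.20 ± 0.09, limma adjusted p = 0.891). The Kcnip proteins bind Kcnd channels and speed their recovery. Kcnip4 averaged 54.1 ± 5.96 FPKM after TBI and 53.4 ± 5.04 after sham, and Kcnip3 33.5 ± 3.23 and 29.9 ± 7.88.

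The library sham 1 moved the CA1 counts. Without it 10 genes had an unadjusted limma p under 0.05, 2 higher and 8 lower, where 12.3% of all rows did. Among the lower ones were Kcng4 (-0.47), Kcnab2 (-0.44), Kcnq5 (-0.43), Kcnd2 (-0.29), Kcnj10 (-0.26), Kcnj3 (-0.23) and Kcnj13 (-0.22), and the higher ones Kcnf1 (0.90) and Kcnj2 (0.32). All 10 had a limma adjusted p of at least 0.286. Without sham 1 and TBI 1 there were 13, 3 higher and 10 lower, where 13.7% of all rows did. Without TBI 1 alone there were 5, where 7.24% of all rows did, and there were 2 without TBI 3, TBI 4 or sham 4, where 4.14%, 3.71% and 6.07% did. TBI 4 was the lowest TBI library for 33 of the 69 genes (47.8%), against 26.2% of all rows. Sham 1 was the lowest sham library for 25 of the 69 genes (36.2%) and for 38.5% of all rows. The same library was the highest sham library for 23 genes (33.3%) and for 25% of all rows. It was also the lowest sham library in Camk2a (1239 FPKM, against 1696 to 1935 in the others) and in Neurod6, a transcription factor of pyramidal neurons (83.6, against 130.3 to 142.8). Of 10 tested pyramidal markers 9 were lower in TBI, with a median of -0.18 and a summed level of 3661 to 4126 FPKM after TBI and 3959 to 4751 after sham. Their part in the channel values was not tested.

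Kcnj13 and Kcne2 are known for the choroid plexus, the epithelium that makes cerebrospinal fluid. Kcne2 was at 5.35, 1.63, 2.14 and 1.01 FPKM in the TBI libraries and at 0.757, 3.57, 1.41 and 1.24 in the sham libraries. It was high in TBI 1 and sham 2 and low in sham 1. Transthyretin (Ttr), an abundant choroid plexus secretory protein, was at 2694, 160.1, 574 and 423 after TBI and at 3.42, 1271, 570.5 and 287 after sham, with TBI 1 and sham 2 again the highest of their groups and sham 1 the lowest of all. The 13 choroid plexus markers summed to 223 to 2867 FPKM after TBI and 65.6 to 1433 after sham, and 8 of 9 tested were higher, though Otx2, a defining one, was listed at 0 throughout. The Kcne2 difference of 0.39 ± 0.47 became -0.22 without sham 1 and TBI 1. Kcnj13 had more than a single row in CA1. The row with the lower mean was at 6.43, 0.636, 1.97 and 1.44 after TBI and at 0.513, 4.33, 2.41 and 1.09 after sham, high and low in the same libraries as Ttr. The row with the higher mean, which stands for the gene here, was at 13.8 to 15.2 FPKM after TBI and 13.7 to 18.0 after sham, and also at 8.70 to 11.9 in WBC after TBI and 8.41 to 9.76 in WBC after sham. Kcnj13 lies inside Gigyf2 in RefSeq, so reads of that row cannot be told apart from those of Gigyf2.

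**Figure D3:**
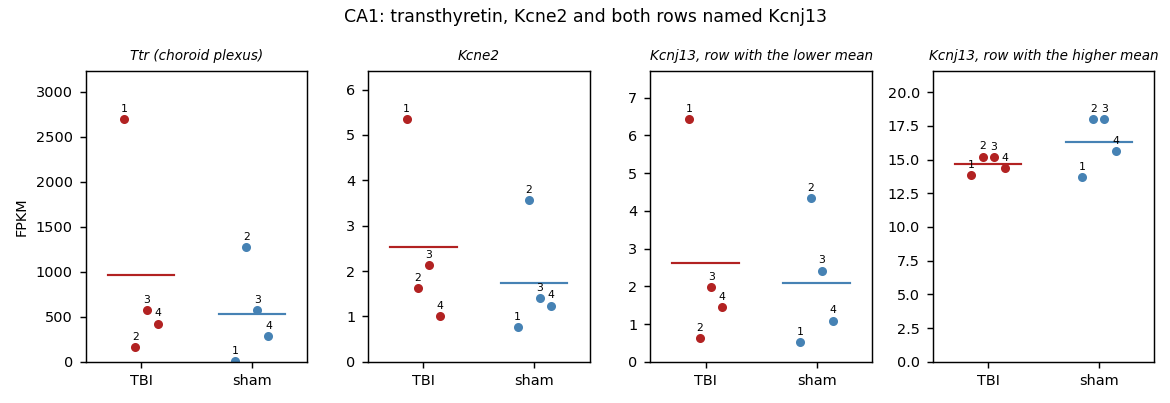
FPKM in CA1 of Ttr, Kcne2 and the rows named Kcnj13, 1 numbered point per library, TBI left and sham right, with a line at the group mean. TBI 1 and sham 2 are the highest of their groups in Ttr, Kcne2 and the lower Kcnj13 row and sham 1 is the lowest sham library there, while the higher Kcnj13 row runs from 13.7 to 18.0 FPKM.

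WBC, TBI against sham, asked the same of the blood, and no potassium channel gene passed there either. Of the 11 genes tested 5 were higher and 6 lower, the smallest limma adjusted p was 0.153, and 0% of the 13413 rows passed. At an unadjusted limma p under 0.05 there were 2 genes (18.2%), both lower, where 20.3% of all rows were under it (12.5% lower), so the share was near that of all rows. The groups did not overlap in 1 gene (9.09%), lower in TBI, against 14.2% of all rows in either direction and 8.63% lower. The count of 2 became 1 without TBI 1, sham 2 or sham 4, where 16.4%, 17.8% and 17.5% of all rows were under 0.05. The median log2 difference was -0.11, beside -0.003 over all rows.

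The gene without overlap was Kcnab1, the beta subunit that gives Kcna channels fast inactivation. It was at 34.9, 58.7, 75.7 and 72.9 FPKM in the TBI libraries, against 122, 143, 86.7 and 84.5 in the sham libraries. Every TBI value lay under every sham value, with TBI 1 the lowest and a small gap between TBI 3 and sham 4. The log2 difference was -0.87 ± 0.27 (limma adjusted p = 0.153), and it was -0.63 without TBI 1. Kcnj5 was at 0.9004, 2.02, 0.836 and 1.62 FPKM after TBI, against 1.51, 2.87, 2.59 and 3.19 after sham (log2 -0.74 ± 0.27, limma adjusted p = 0.188). Its groups overlapped through sham 1.

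Markers of red cells and platelets were also lower after TBI. For comparison, 20.3% of all WBC rows tested had an unadjusted limma p under 0.05, and 50.4% were lower. All 13 red cell markers tested were lower in TBI, 12 of them at an unadjusted limma p under 0.05, with a median of -1.03. All 9 platelet markers tested were lower, 6 of them under 0.05, with a median of -0.91 and a summed level of 2448 to 7283 FPKM after TBI and 7843 to 10675 after sham. Of 11 T cell markers 9 were higher with a median of 0.04, and all 9 B cell markers were lower with a median of -0.18. TBI 1, the lowest library in Kcnab1, was also the lowest in the red cell sum (4884 FPKM) and the platelet sum (2448). Kcnj5 was low both in TBI 1 (0.9004 FPKM) and in TBI 3 (0.836 FPKM). TBI 3 had the highest red cell and platelet sums of the TBI libraries (11904 and 7283 FPKM). The part of these cells in the Kcnab1 and Kcnj5 values was not tested.

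The lymphocyte channels Kcna3 and Kcnn4, the latter also a channel of red cells, were lower and did not pass. Kcnn4 was at 68.2, 64.4, 73.0 and 68.3 FPKM in the TBI libraries, against 81.2, 70.9, 75.1 and 75.9 in the sham libraries (log2 -0.14 ± 0.07, limma adjusted p = 0.306). Only TBI 3 lay within the sham values, and under quantile normalization the difference turned to 0.10. Kcna3 was at 10.7, 14.5, 14.996 and 16.3 after TBI, against 20.8, 18.8, 12.0 and 21.3 after sham (log2 -0.34 ± 0.20, limma adjusted p = 0.375). Its 3 highest sham libraries lay above every TBI library and sham 3 lay among them. Kcns3, a silent subunit, varied most, at 1.48, 3.22, 9.91 and 8.53 after TBI and at 9.21, 11.5, 5.48 and 13.7 after sham (log2 -0.96 ± 0.53, limma adjusted p = 0.349). TBI 1 and TBI 2 lay under TBI 3 and TBI 4, as they also did in the Kcnab1 values.

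The genes higher in WBC after TBI were so by little. Kcnk1 was at 1.58, 1.12, 0.663 and 1.36 FPKM after TBI and at 0.813, 1.12, 0.882 and 0.675 after sham (log2 0.27 ± 0.22). Kcnj13 was at 9.33, 8.70, 11.9 and 10.7 after TBI and at 8.92, 8.41, 9.76 and 9.70 after sham (log2 0.13 ± 0.11). Kcne1l was at 6.38, 2.55, 2.71 and 5.17 after TBI and at 3.39, 4.42, 3.49 and 2.65 after sham (log2 0.17 ± 0.28). In each the groups overlapped. Kcnab2 (33.3, 30.4, 33.5 and 35.2 after TBI, 33.1, 27.2, 38.7 and 31.2 after sham) and Kcnmb4 (4.21 ± 0.480 after TBI, 4.17 ± 0.838 after sham) were level, and Kcnj9 averaged 1.32 ± 0.0993 after TBI and 1.49 ± 0.278 after sham.

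**Figure D4:**
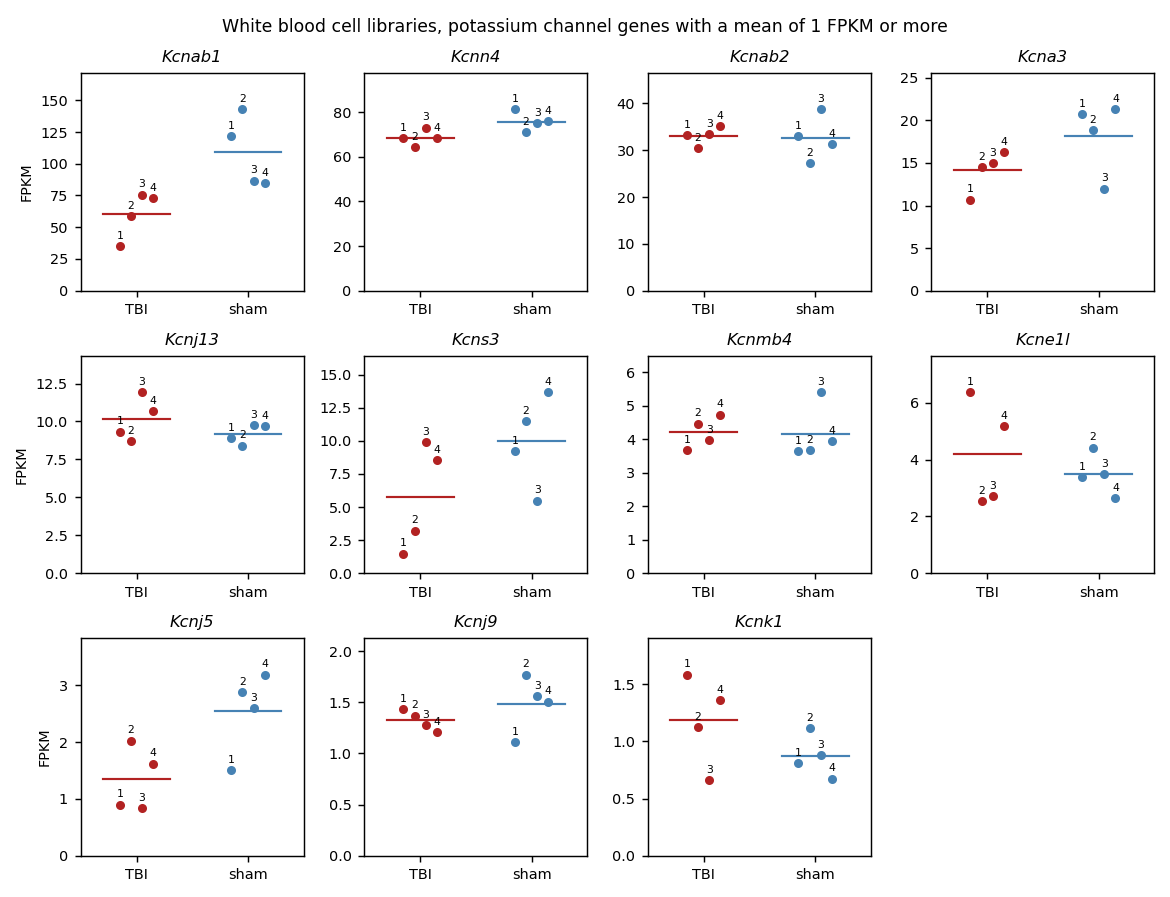
FPKM in WBC of the 11 potassium channel genes with a mean of at least 1 FPKM, 1 numbered point per library, TBI left and sham right, with a line at the group mean. In Kcnab1 all TBI libraries (34.9 to 75.7) lie under all sham libraries (84.5 to 143), and in the other genes the groups overlap.

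The difference between tissues was tested for the 9 genes measured in both, by the interaction term of a limma model over 7570 genes. None passed, where 0.41% of those genes did. Kcnab1 differed by -0.87 in WBC and -0.17 in CA1, and the WBC difference minus the CA1 difference was -0.70 ± 0.30 (limma adjusted p = 0.205), where 19.7% of all genes had an unadjusted p under 0.05. Kcnab2 differed by 0.03 in WBC and -0.29 in CA1 (interaction 0.32 ± 0.19, limma adjusted p = 0.372). Kcnj13 differed by 0.13 in WBC and -0.14 in CA1 (0.27 ± 0.14, limma adjusted p = 0.307), and Kcns3 by -0.96 in WBC and -0.0044 in CA1 (-0.96 ± 0.56, limma adjusted p = 0.369).

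**Figure D5:**
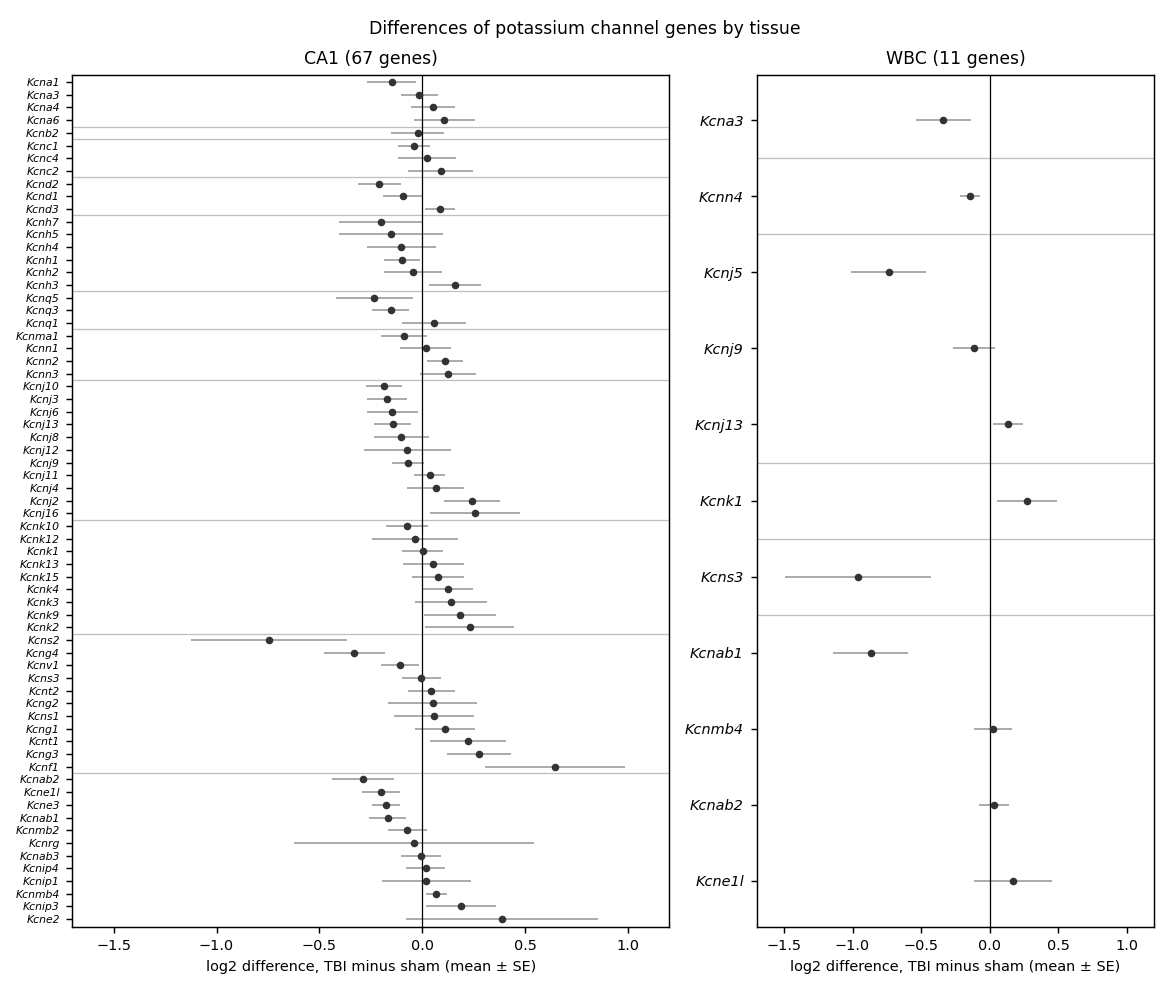
Log2 difference of TBI minus sham with its standard error for potassium channel genes tested in CA1 (67, left) and WBC (11, right), ordered by family and by size within it. Most CA1 differences lie within 0.3 of 0, with Kcns2 (-0.75) and Kcnf1 (0.64) at the ends, and in WBC Kcns3, Kcnab1 and Kcnj5 lie lowest.

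None of the listed genes that work with these channels passed either. Of 9 channel partners tested in CA1, such as the Kcnd partners Dpp6 and Dpp10 and the anchoring proteins of axonal channels, 8 were lower, with a median of -0.12. Dpp10, the exception, averaged 15.6 FPKM after TBI and 13.4 after sham. Lrrc55, an auxiliary protein of Kcnma1, averaged 3.34 ± 1.04 FPKM after TBI and 4.77 ± 1.03 after sham (log2 -0.47 ± 0.20, limma adjusted p = 0.891). Of 17 genes of the sodium-potassium pump, its Fxyd regulators and the cation-chloride cotransporters, 8 were higher and 9 lower in CA1, with a median of -0.001. Fxyd6, a pump regulator, averaged 43.9 ± 8.89 after TBI and 30.7 ± 8.54 after sham (log2 0.53 ± 0.20, limma adjusted p = 0.891). In WBC 11 such transport genes were tested, 6 higher and 5 lower, and 3 (27.3%) had an unadjusted limma p under 0.05, against 20.3% of all WBC rows tested. The potassium-chloride cotransporter Slc12a7 was at 19.0, 17.2, 20.2 and 25.1 FPKM after TBI, against 15.6, 14.8, 14.8 and 14.2 after sham. All TBI values lay above all sham values (log2 0.43 ± 0.11, limma adjusted p = 0.136), and groups did not overlap in 14.2% of all WBC rows. Nedd4l, a ubiquitin ligase that removes channels from the membrane, averaged 37.1 ± 21.1 after TBI and 77.8 ± 21.0 after sham in WBC (log2 -1.21 ± 0.42, limma adjusted p = 0.172).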

How the data were processed

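Poly-A RNA of 16 libraries was sequenced by the submitters. The deposited values are FPKM, which the authors made with TopHat, TopHat2, Bowtie, Bowtie2, Cufflinks and Cuffdiff on rn5, per the submitters' processing notes; the sources used here give no versions, annotation or normalization setting. From them log2(FPKM + 0.5) was computed, so differences of low genes are understated. Rows with a mean of at least 1 FPKM over the 8 libraries of a tissue and status OK in all were fitted with limma 3.58.1 (lmFit, eBayes with a trend, 2-sided), each tissue alone, with Benjamini-Hochberg adjustment over all rows and a threshold of 0.05. The interaction used 1 row per symbol. Members, lists and tests were chosen with earlier results of these data known. Named genes are, per tissue, the 4 with the smallest p in each direction, the 3 of each family with the highest CA1 mean, the 10 highest in WBC and genes of known role. Kcns2, Kcnrg and others whose libraries stood apart, and the partners named, were chosen after their values were seen. The fit was tested on simulated data with the spread of these libraries and added changes. In CA1, 12% of log2 changes of 0.3 passed, 50% of 0.5, 84% of 1 and 98% of 2. In WBC the shares were 2%, 36%, 54% and 90%. Small differences would thus mostly be missed. Promoters and neighbours came from RefSeq GRCr8; a planned search of proteins was not run. A few genes, though in the fits and counts, are not reported here. Alternatives are listed at the end. The software was limma under R 4.3.3, with pandas 2.3.3, numpy 2.4.6 and matplotlib 3.10.9 under Python 3.11.15.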

Additional observations from a re-analysis of the deposited data

Results flagged for a closer look

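In 110 groups of 4 libraries looked at, 4 had a library far from the other 3 by Dixon's criterion, where chance gives about 1 in 20 groups. In CA1 after TBI, Kcnf1 was at 16.8 FPKM in TBI 2 (others 9.52 to 10.1), and Kcnmb4 at 66.4 in TBI 2 (others 60.9 to 61.6). In CA1 after sham, Kcnab2 was at 253 FPKM in sham 1 (others 368 to 391.5). In WBC after sham, Kcnmb4 was at 5.41 FPKM in sham 3 (others 3.65 to 3.94).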

How the results depend on the processing

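No potassium channel gene passed in CA1, in WBC or in the interaction under any setting run: other pseudocounts (0.1 and 1), a minimum mean of 5 FPKM or none, median-ratio or quantile normalization, limma without the trend, robust or with sample weights, the replicate block, an adjusted p of 0.1, and leaving out libraries. The smallest adjusted p was 0.112 in CA1 (the first of the split Kcns2 rows, without TBI 1 and sham 1), 0.131 in WBC and 0.106 for the interaction. Chosen after seeing the data were the fit without sham 1 and TBI 1, the counting of rows with several symbols and the summing of the Kcns2 rows.

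The CA1 count at an unadjusted limma p under 0.05, 1 at the reported settings, was 0 with a minimum mean of 5 FPKM, 2 with median-ratio scaling, 4 with quantile normalization, 10 with sample weights, and 13 without sham 1 and TBI 1. Of all rows tested 5.14% were under it at the reported settings, and 4.57%, 5.38%, 5.31%, 13.8% and 13.7% in that order of settings. Leaving out 1 library gave 1 to 10: 5 without TBI 1, 2 without TBI 3, TBI 4 or sham 4, and 10 without sham 1. The WBC count of 2 was 3 of 77 genes with no filter on the mean, where 16.4% of all rows were under 0.05. It was 1 of 6 genes with a minimum mean of 5 FPKM, where 23.1% of all rows were. On leaving out a library it was 1 to 2 (1 without TBI 1, sham 2 or sham 4). The WBC median of -0.11 was 0.023 with no filter, -0.24 with a minimum mean of 5 FPKM and 0.0072 with quantile normalization, and -0.14 to -0.05 on leaving out a library. The cause of these moves was not tested, beyond the smaller number of genes or libraries in some settings. Over 55 results for named genes and 1117 settings, 43 settings changed the sign of a difference that had not passed, in 18 results, and none passed the threshold.

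The labels do not say whether equal sample numbers mark paired libraries, and the correlations did not settle it. Deviations of same-numbered TBI and sham libraries correlated at 0.02 to 0.24 in CA1 and -0.01 to 0.15 in WBC. They were below 0.1 for some numbers in each tissue, while numbers 1 and 4 in CA1 and 1 in WBC correlated best with their own number. In CA1, TBI 1 and sham 1 also stood apart together in the Kcns2 and Kcnrg rows. CA1 and WBC libraries of equal number and group correlated at 0.05 to 0.20, positive in all 8 and over 0.1 in 3. With the replicate block 3 CA1 genes were under 0.05 unadjusted, as were 5.94% of all rows, and none passed. Depth is unknown, so no detection limit can be given for genes listed at 0.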

Other observations

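Rows outside the single-symbol rule also carry potassium channel genes in CA1. The row naming Kcnip2 and Mgea5 was at 29.1 to 32.6 FPKM after TBI and 29.1 to 38.6 after sham, while the row naming Kcnip2 alone averaged 0.276 over both groups. The row naming Grwd1 and Kcnj14 was at 6.60 to 7.43 FPKM after TBI and 6.25 to 7.95 after sham, and the row naming Kcnrg and Trim13 at 4.69 to 6.27 after TBI and 5.20 to 6.05 after sham. A second row named Kcnk1 was at 0.425, 2.92, 6.76 and 4.13 FPKM after TBI and at 1.36, 0.632, 1.40 and 3.47 after sham, with overlap between the groups.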
